A study of Rattus norvegicus with 8 samples.

Results

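The genes described here encode enzymes that break down the aromatic amino acids tyrosine, phenylalanine and tryptophan in liver. They were chosen by name from a list of 8 (Tat, Hpd, Hgd, Fah, Tdo2, Kmo, Kynu and Haao), and a probe set was used where the platform's annotation matched it to one of these symbols alone. This gave 7 of the 4736 genes on the array, read by 10 of the 8740 probe sets that are not array controls. The remaining gene of the list, Hgd, which encodes the homogentisate dioxygenase, was not analysed here. Liver RNA from 8 male Fischer 344 rats was hybridised to Affymetrix arrays, 1 array per rat, with 4 rats in each group. The labels give the age of every rat as 6 without a unit and the diet as AIN 76A chow. The Liver_D3T rats received 3H-1,2-dithiole-3-thione (D3T), a sulfur heterocycle known as an inducer of detoxification enzymes, given by gavage on days 1, 3 and 5 at 0.3 mmol/kg, with saturated sucrose as its vehicle. The Liver_Control rats received 0.2 ml of the sucrose vehicle, on the same days for 3 of them and with no days labelled for replicate 2. Whole liver was measured, so fewer cells of a type and less RNA per cell cannot be told apart.

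Tyrosine, which the liver also makes from phenylalanine, is broken down by a chain of enzymes that opens with the aminotransferase Tat. The chain passes through the dioxygenases Hpd and Hgd and closes with the hydrolase Fah, which releases fumarate and acetoacetate. Tryptophan is opened by the dioxygenase Tdo2 to give the precursor of kynurenine. Kmo then hydroxylates kynurenine, Kynu cleaves the product to hydroxyanthranilate, and Haao opens that ring on the way to quinolinate, from which NAD can be made. These enzymes are concentrated in hepatocytes, and Tat and Tdo2 are textbook examples of liver genes induced by glucocorticoids. Kmo and Kynu are also known from macrophages.

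Between these groups 1 of the 7 genes differed past the threshold, and it lay in the tryptophan branch; of all 3150 genes tested, 9.56% passed in either direction and 5.84% as lower. Kynu fell to 0.504 of its vehicle signal, while the genes of the steps directly before and after it, Kmo and Haao, had ratios of 1.10 and 1.04 that did not pass. The promoters of these 3 neighbouring steps are shown because they hold the 1 gene past the threshold and the steps beside it. That call was not firm, since the Kynu groups overlapped at replicate 2 and Kynu passed in 11 of 21 alternative fits. A count of 1 in 7 is also near the share over all genes. All 8 genes of the list were found in the RefSeq promoter table of the rat assembly GRCr8, where they lie on 8 different chromosomes. Each window runs from 250 bases before to 50 bases after the annotated start of the gene and is printed 5′ to 3′ on the strand of the gene. Capitals mark matches to the motifs searched, on either strand, so that a CCAAT on the other strand reads ATTGG. The window of Kynu is chr3:48188036-48188335 on the + strand, that of Kmo chr13:90089271-90089570 on the + strand and that of Haao chr6:16598075-16598374 on the + strand.
Kmo: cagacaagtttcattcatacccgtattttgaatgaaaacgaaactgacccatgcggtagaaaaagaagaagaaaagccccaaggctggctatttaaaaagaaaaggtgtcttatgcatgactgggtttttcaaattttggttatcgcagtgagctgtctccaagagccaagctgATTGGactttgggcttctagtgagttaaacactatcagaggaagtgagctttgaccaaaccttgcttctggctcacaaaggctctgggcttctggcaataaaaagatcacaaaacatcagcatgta
Kynu: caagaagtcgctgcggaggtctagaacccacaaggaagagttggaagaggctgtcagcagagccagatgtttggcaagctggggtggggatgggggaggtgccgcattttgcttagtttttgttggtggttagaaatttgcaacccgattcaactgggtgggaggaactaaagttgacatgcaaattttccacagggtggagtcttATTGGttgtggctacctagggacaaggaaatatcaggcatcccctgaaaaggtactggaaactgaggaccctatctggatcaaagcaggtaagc
Haao: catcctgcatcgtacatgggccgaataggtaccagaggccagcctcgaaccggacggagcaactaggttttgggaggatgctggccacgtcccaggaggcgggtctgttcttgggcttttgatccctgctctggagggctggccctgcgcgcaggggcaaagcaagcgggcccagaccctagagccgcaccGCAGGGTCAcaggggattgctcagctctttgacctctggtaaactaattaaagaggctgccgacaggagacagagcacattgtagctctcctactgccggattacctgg

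Both strands were searched for 4 short motifs that share no overlap with each other here. The CCAAT box, CCAAT, was matched once in the Kynu window and once in the Kmo window, and in 5 of the 8 genes (Tat, Hgd, Tdo2, Kmo and Kynu); 37.5% of all 33469 promoters of this length held it. The core of the antioxidant response element, TGACNNNGC, was matched in Haao and Hpd, 2 of 8 genes, where 12.1% of all promoters held it. The TATA box, TATAAA, was matched in Tdo2 alone among the 8 (14.2% of all promoters), and an HNF1 motif, GTTAAT, in Hpd alone (7.45%). The gene that fell and the gene of the step before it thus held the same single motif of the 4, and a match is a description of letters, not of a bound site.

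The signals are brightness values in array units, precision is limited by the number of arrays, and no order of levels between probe sets is drawn. Of 7 tested genes from a list of D3T-responsive ones, 5 were higher, where 3.71% of all genes were. That list was drawn up with earlier results of these data known, so the count is a description and no independent check. Gstp1 was 29.9-fold, Akr7a3 16.5-fold and Nqo1 3.44-fold above vehicle. The log2 fold change of Nqo1 was 1.78, and 1.67 with the actin ratio as a covariate, where the limma adjusted p was 0.0802. Gclm (limma adjusted p = 0.0913) and Txnrd1 (0.624) did not pass. Over the whole array limma called 560 of 5244 probe sets at an adjusted p under 0.05 (10.7%), 4.2% as higher and 6.48% as lower. Of these 60.7% were lower, whereas of the 35 called with the actin ratio (described next) as a covariate 24 were higher and 11 lower (31.4%). The ratio of the 3' to the 5' signal of actin, a measure of RNA integrity and labelling, ran from 1.45 to 1.59 in vehicle arrays and from 1.17 to 1.47 in D3T arrays (exact two-sided permutation p = 0.0571, adjusted over 2 measures 0.114). The same ratio for GAPDH ran from 1.70 to 2.18 and from 1.43 to 2.00 (exact permutation p = 0.114, adjusted 0.114). The smallest p that 70 assignments allow is 0.0286.

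**Figure D1:**
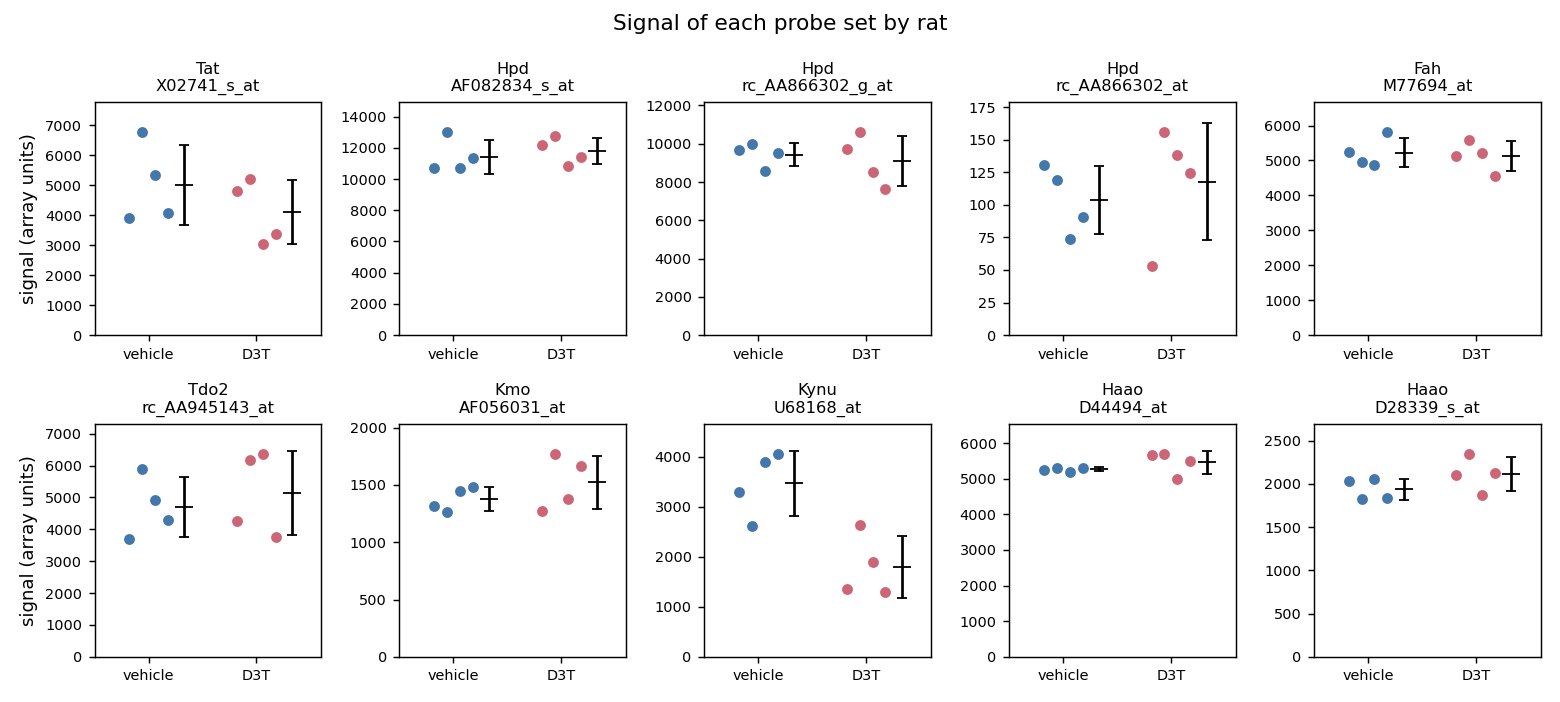
Signal of each of the 10 probe sets (linear axis from 0, array units) in 4 vehicle rats (blue) and 4 D3T rats (red), with replicates 1 to 4 from left to right and the group mean ± SD in black. Kynu had D3T signals of 1287 to 2643 against vehicle signals of 2619 to 4054, which overlap at replicate 2 of each group, and the groups overlap in the other panels too.

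Tyrosine breakdown showed no gene past the threshold. Tat (X02741_s_at), whose enzyme removes the amino group of tyrosine, had signals of 3897, 6766, 5336 and 4057 in vehicle replicates 1 to 4 and of 4816, 5201, 3045 and 3373 in D3T replicates 1 to 4. The groups overlapped widely, with vehicle replicate 2 highest and D3T replicate 3 lowest. The means were 5014 ± 1334 (SD, n = 4) and 4109 ± 1059, and the log2 fold change was -0.29 ± 0.22 (SE, limma adjusted p = 0.397). Its 95% interval ran from a ratio of 0.588 to 1.14, so a fall of over 1.5-fold lies within it. The Tat probe set has a name that marks sequence shared with other transcripts, as have 4 of the 10 probe sets.

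Hpd, the dioxygenase that turns hydroxyphenylpyruvate into homogentisate, was measured by 3 probe sets. The brightest, AF082834_s_at, had signals of 10679, 12996, 10681 and 11336 in vehicle and of 12199, 12738, 10851 and 11441 after D3T. Its lowest and highest arrays differed by 1.22-fold in vehicle and by 1.17-fold after D3T, and the log2 fold change was 0.05 ± 0.11 (adjusted p = 0.775). The second, rc_AA866302_g_at, had means of 9424 ± 611.6 (SD, n = 4) in vehicle rats and 9113 ± 1305 in D3T rats, a log2 difference of -0.06 ± 0.12 (adjusted p = 0.774). The third, rc_AA866302_at, carries the same sequence name and was dim, at 103.7 ± 25.8 and 117.8 ± 45.1, and its interval ran from 0.609 to 1.91. The changes of the bright pair thus had opposite signs and were each smaller than their errors, and the dim probe set left a wide range.

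Fah (M77694_at), which performs the closing step and whose loss causes hereditary tyrosinemia, was nearly level across rats. Its signals were 5232, 4967, 4876 and 5808 in vehicle and 5129, 5599.7, 5204 and 4552 after D3T. The means of 5221 ± 419.4 (SD, n = 4) and 5121 ± 432.1 differed by less than 1 SD. The log2 fold change was -0.03 ± 0.11 (adjusted p = 0.877), with an interval from 0.832 to 1.16.

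The entry to tryptophan breakdown did not pass either. Tdo2 (rc_AA945143_at), the dioxygenase that opens the indole ring, had signals of 3708, 5886, 4917 and 4295 in vehicle and of 4275, 6160.0, 6361 and 3767 after D3T. D3T replicates 2 and 3 were the highest of the 8 arrays, and vehicle replicate 1 and D3T replicate 4 the lowest. The log2 fold change was 0.11 ± 0.20 (adjusted p = 0.722), and the interval ran from 0.800 to 1.46. Kmo (AF056031_at), the flavin enzyme that hydroxylates kynurenine, gave 1316, 1260.0, 1447 and 1478 in vehicle and 1275, 1769, 1378 and 1667 after D3T. D3T replicates 2 and 4 stood above every vehicle array and the other D3T arrays lay within the vehicle range. The log2 fold change of Kmo was 0.14 ± 0.14 (adjusted p = 0.522), with an interval from 0.894 to 1.35.

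Kynu (U68168_at), the hydrolase that uses pyridoxal phosphate to cleave kynurenine and hydroxykynurenine, was the gene that fell. Its signals were 3289, 2619, 3905 and 4054 in vehicle replicates 1 to 4 and 1361, 2643, 1897 and 1287 in D3T replicates 1 to 4. The lowest vehicle array and the highest D3T array, both replicate 2, overlapped by a small margin, and the other 3 D3T arrays lay below every vehicle array. The mean went from 3467 ± 655.2 (SD, n = 4) to 1797 ± 626.1, a log2 fold change of -0.99 ± 0.23 (SE) with a limma adjusted p of 0.0230. The interval of the ratio ran from 0.355 to 0.715. Since 5.84% of all genes were lower and 3.71% higher, 1 gene lower of 7 is near the share found among all genes.

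The Kynu call rested on most of the arrays together. It did not pass without vehicle replicate 1 (adjusted p = 0.0565), vehicle replicate 3 (0.0712), vehicle replicate 4 (0.0627), D3T replicate 1 (0.0662) or D3T replicate 4 (0.0599), and it passed without vehicle replicate 2 (0.0186), D3T replicate 2 (0.00693) or D3T replicate 3 (0.0380). Nor did it pass with no filter on dim probe sets (0.0915) or with no intensity trend (0.0567). The log2 fold change over these fits ran from -1.20 to -0.85. Adding the 3'/5' ratio of actin to the fit gave -0.65 ± 0.35 (adjusted p = 0.430), a change of 1.57-fold, and with the GAPDH ratio, an alternative chosen after seeing the data, -0.88 ± 0.29 (adjusted p = 0.129). Over the 21 alternative fits Kynu passed in 11 and was lower in every one.

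**Figure D2:**
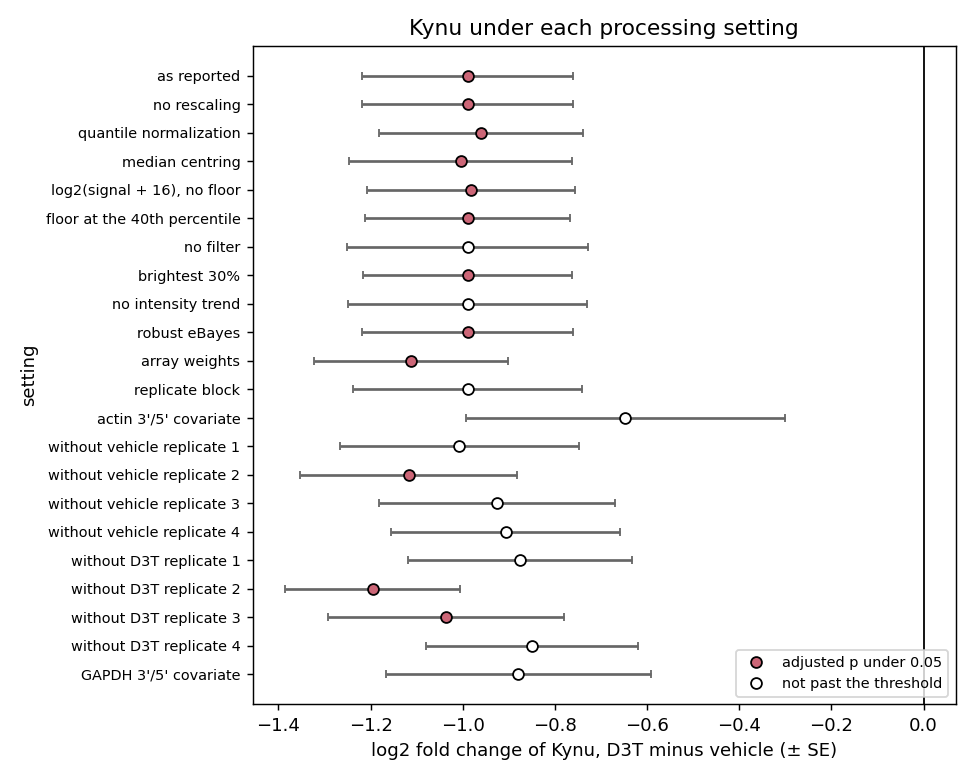
Log2 fold change of Kynu (horizontal axis, D3T minus vehicle, bars ± SE) as reported and in 21 alternative fits (vertical axis), filled where the adjusted p was under 0.05. All values lie below 0, from -1.20 without D3T replicate 2 to -0.65 with the actin covariate, and 11 of the 21 are filled.

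Haao, the dioxygenase that takes up the product of Kynu, was measured by 2 probe sets. The brighter, D44494_at, had signals of 5239, 5314, 5202 and 5309 in vehicle and of 5659, 5695, 4995 and 5503 after D3T. The vehicle arrays lay within 1.02-fold of each other, and 3 of the 4 D3T arrays were above them while D3T replicate 3 was below. The means were 5266 ± 54.5 (SD, n = 4) and 5463 ± 322.9, and the log2 fold change was 0.05 ± 0.09 (adjusted p = 0.738). The second, D28339_s_at, whose name marks shared sequence, had means of 1939 ± 121.2 and 2112 ± 193.9, a log2 difference of 0.12 ± 0.11 (adjusted p = 0.491). The intervals of the ratio were 0.898 to 1.20 and 0.916 to 1.29, both short of a 1.5-fold change either way.

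**Figure D3:**
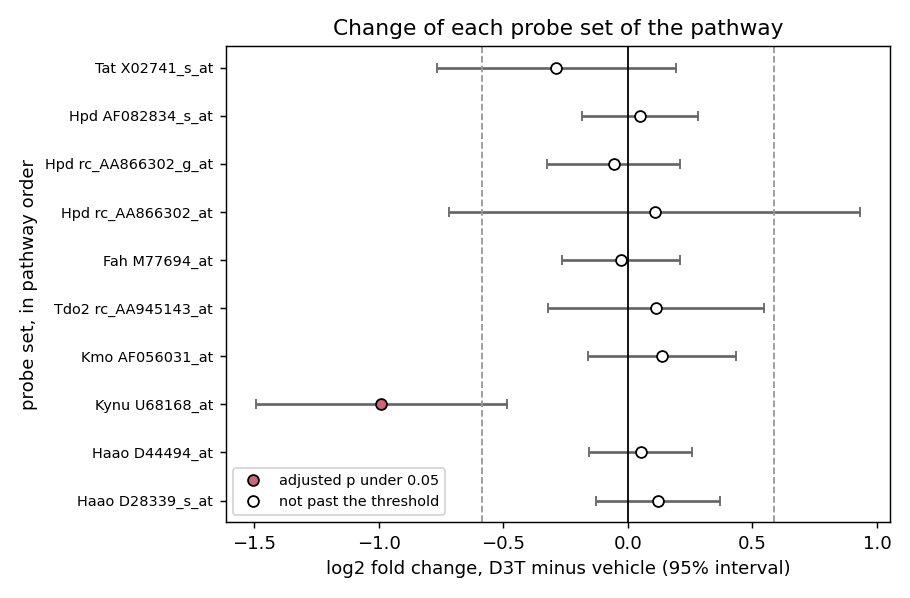
Log2 fold change (horizontal axis, D3T minus vehicle) of the 10 probe sets in pathway order (vertical axis), with 95% intervals from limma and dashed lines at a 1.5-fold change in each direction. Kynu alone is filled as past the threshold, with an interval from -1.49 to -0.48, and the intervals of 7 probe sets lie wholly between the dashed lines.

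Most of the other genes had intervals within a 1.5-fold change, Tat being the exception and Tdo2 coming close to the limit at 1.46. The shares given next were not matched for signal level, and dim probe sets vary more. The 95% interval lay within a 1.5-fold change in both directions for 7 of the 10 probe sets, where 21.3% of all probe sets tested met this, and for 5 of the 7 genes (Hpd, Fah, Tdo2, Kmo and Haao), where 22.8% of all genes did. All 7 genes passed the filter on dim probe sets, which used the mean over both groups. In 0 of the 10 probe sets were the D3T arrays wholly above or below the vehicle arrays, which was the case for 19.2% of all probe sets tested. The median log2 fold change was 0.05 over the 7 genes and 0.03 over all 3150.

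Because every gene was read on the same arrays, Kynu could be set against each of the other 6 within an array, which leaves out the scaling of the array. This comparison was chosen because Kynu had fallen, so the ratios are a description and carry no test. The ratio of Kynu to Kmo was 2.50, 2.08, 2.70 and 2.74 in vehicle replicates 1 to 4 and 1.07, 1.49, 1.38 and 0.772 in D3T replicates 1 to 4, with no overlap. The mean ratio was 2.18-fold lower in the D3T arrays. The ratios to Haao, Fah and Tdo2 were 2.06-fold, 1.95-fold and 2.15-fold lower, also without overlap. The ratio to Hpd was 2.05-fold lower with a slight overlap and that to Tat 1.63-fold lower with a wide one. All 6 ratios share the Kynu signal, so they are not independent of each other. Kynu itself overlapped at replicate 2 (2619 in vehicle, 2643 after D3T). The separation of some ratios therefore also reflects the signals of the other genes on those arrays. How often such ratios separate for other genes was not counted.

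**Figure D4:**
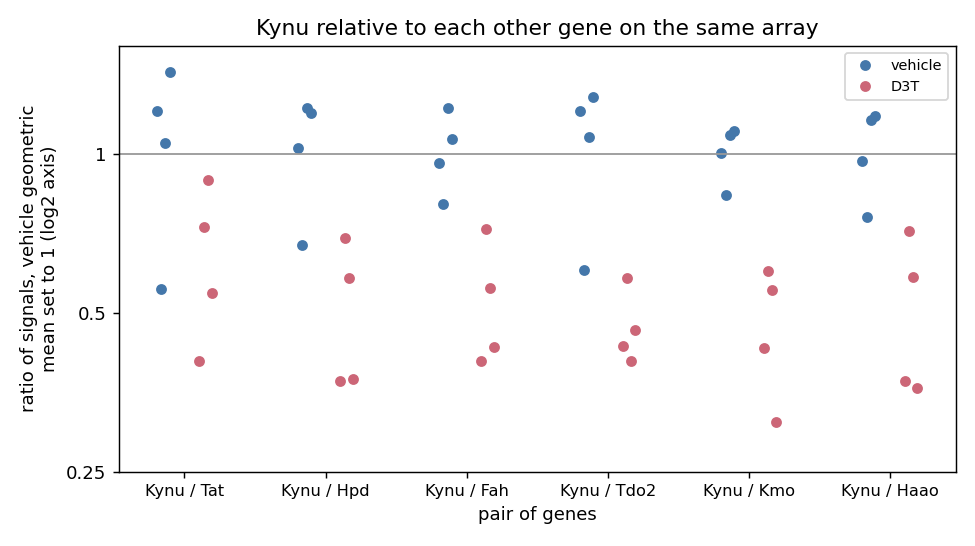
Ratio of the Kynu signal to that of each other gene on the same array (vertical log2 axis, the geometric mean of the vehicle arrays set to 1), with 4 vehicle arrays in blue and 4 D3T arrays in red. The red points lie wholly below the blue ones for Fah, Tdo2, Kmo and Haao and overlap them for Tat and Hpd.

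The genes differed widely in how much rats of the same group varied. The coefficient of variation of Tat was 26.6% in vehicle and 25.8% after D3T, that of Tdo2 19.8% and 25.5%, and that of Kynu 18.9% and 34.8%. The brighter probe set of Haao stood at 1.04% in vehicle and 5.91% after D3T, and Fah at 8.03% and 8.44%. Since dim probe sets vary more, each residual SD was set against probe sets whose mean signal lay within 0.5 log2 units. On that scale Tat lay at percentile 93.0 of 244 probe sets, Kynu at 91.0 of 346 and Tdo2 at 88.5 of 218. Haao lay at 1.88 of 213, the brightest Hpd probe set at 15.3 of 118, Fah at 20.9 of 211 and Kmo at 31.9 of 426. The other 2 Hpd probe sets lay at 52.6 of 152 and 58.1 of 1228, and the second of Haao at 9.04 of 354. Tat, Tdo2 and Kynu were thus among the more variable for their level and Haao and Fah among the less variable, while the probe sets of Hpd differed. In vehicle rats Tat and Tdo2 shared 1 order, with replicate 1 lowest, then 4, then 3, and replicate 2 highest. After D3T they did not, since replicate 3 was lowest for Tat and highest for Tdo2. How often genes share such an order was not counted. D3T replicate 2 was the highest D3T array for every probe set of the pathway, that of Kynu included, except that of Tdo2.

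**Figure D5:**
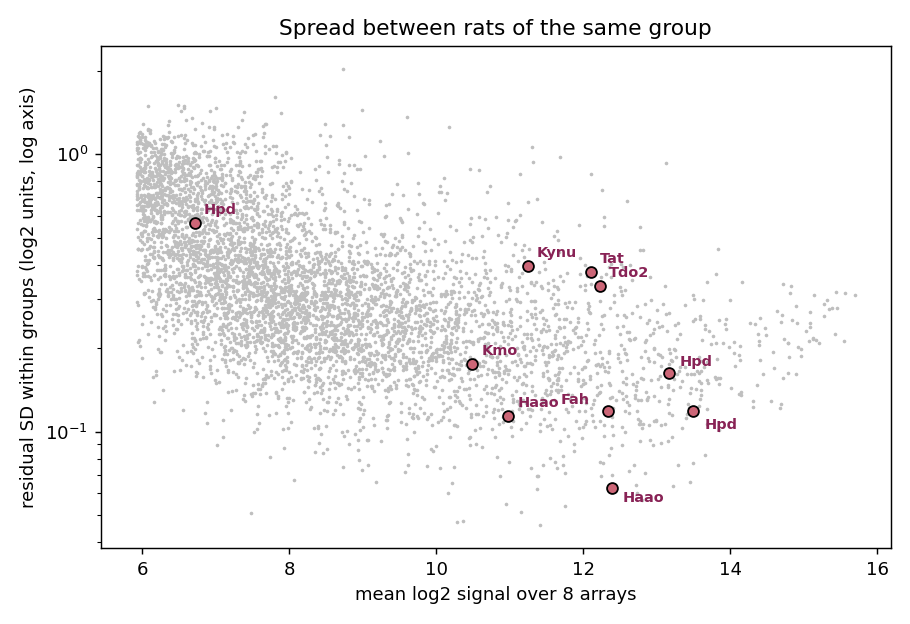
Residual SD within groups (vertical log axis, log2 units) against the mean log2 signal over 8 arrays (horizontal axis) for the 5244 probe sets tested (grey) and the 10 probe sets of the pathway (red). Kynu, Tat and Tdo2 lie high for their level and the brighter Haao probe set, at 0.063, lies at the lower edge.

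Genes that feed the pathway or branch from it were read from lists drawn up with earlier results known. Over the 3 lists nearest to it, 0 of 17 genes passed with limma, where 9.56% of all genes did. In phenylalanine hydroxylation and its cofactor, 5 of 10 genes were tested and none passed (median log2 fold change 0.08). Qdpr, which regenerates the tetrahydrobiopterin cofactor, came closest, from 3384 ± 275.1 (SD, n = 4) to 4168 ± 169.7 with all 4 D3T arrays above the vehicle arrays (log2 fold change 0.30 ± 0.10, adjusted p = 0.0797). It passed in 2 of 21 alternative fits, with array weights (0.0469) and without vehicle replicate 2 (0.0410). Qdpr was the only one of the 17 whose groups did not overlap, where 19.3% of all genes had such groups. Among 10 genes of other transamination, amine and uptake routes the median was 0.01, and Got2, a mitochondrial aspartate aminotransferase also known to act on kynurenine, was brightest (-0.29 ± 0.13, adjusted p = 0.151). Of the list of kynurenine branches and NAD, only Parp1, which consumes NAD, and Bst1 were measured (median 0.08), and Parp1 had a log2 fold change of 0.38 ± 0.23 (adjusted p = 0.291). Of 20 genes that break down other amino acids 1 was lower and none higher (median -0.03): Oat, the ornithine aminotransferase, went from 2263 ± 548.5 to 599.1 ± 257.3 (-1.98 ± 0.28, adjusted p = 0.00212). With the actin covariate Oat stayed as low, at -2.03 ± 0.45, with an adjusted p of 0.0963.

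Among genes known to respond to glucocorticoids, as Tat and Tdo2 do, 3 of 15 were lower and 1 higher, with a median log2 fold change of -0.32; over all genes the share in either direction was 9.56%. Fgb, a fibrinogen chain, and Agt, the angiotensin precursor, had log2 fold changes of -0.80 ± 0.16 (adjusted p = 0.0126) and -0.70 ± 0.13 (0.0102), and the acute phase gene Orm1 was higher by 0.65 ± 0.11 (0.00620). With the actin covariate Orm1 passed at 0.90. Agt kept its size at -0.72 with a larger error and did not pass (adjusted p = 0.180), and Fgb was smaller at -0.43 (0.379). Of 12 liver-enriched transcription factors 1 was lower and 1 higher (median 0.00409). The lower one, Cebpb, is on both lists and is also the remaining lower gene among those known to respond to glucocorticoids. Cebpb, a factor of the acute phase and of amino acid metabolism, fell by 0.59 on the log2 scale (adjusted p = 0.0186); with the actin covariate it was -0.50 and did not pass (0.317). Hnf4a, a regulator of hepatocyte genes, was higher by 0.50 (adjusted p = 0.0477) and passed in 7 of 21 alternative fits (adjusted p up to 0.556).

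Markers of other liver cells were read beside Kynu, and most did not pass. Of 15 symbols listed for macrophage markers, alternative names of a gene included, 9 were on the array and 7 tested. Of these 7, 2 were lower and 1 higher (median -0.48). Csf1r and Itgam lay below the filter. Over all genes 9.56% passed in either direction. The summed signal of the 7 ran from 5625 to 6269.8 in vehicle arrays and from 4514 to 5481 after D3T, without overlap, and none of those tested was at 0. How often such sums separate for other genes was not counted. The 4 that did not pass went both ways. Lyz2 and Clec4f had log2 fold changes of -0.74 and -0.48 (limma adjusted p = 0.0927 and 0.0546). C1qc and Ptprc had 0.08 and 0.64 (0.765 and 0.156). Aif1 and C1qb had log2 fold changes of -1.09 and -0.79 (adjusted p = 0.0149 and 0.00918) and Cd14 one of 0.80 (0.0105); with the actin covariate they were -1.33, -0.72 and 0.65 with larger errors, and none of the 3 passed (adjusted p = 0.139, 0.210 and 0.259). Of 8 stellate cell and fibroblast markers Col3a1 alone was lower (-0.90, adjusted p = 0.0399, passing in 9 of 21 alternative fits), with summed signals from 2681 to 4351 and from 2241 to 2938. Of 11 hepatocyte markers 1 was lower, Fgb again, and none higher (median 0.27). None of 3 endothelial (median -0.13), 3 cholangiocyte (0.17), 4 lymphocyte (0.32) or 3 erythroid (-0.45) markers passed with limma, and their brightest were Kdr, Epcam, Cd4 and Hbb (adjusted p = 0.557, 0.696, 0.102 and 0.0600). The part of macrophage content in the Kynu value was not tested.

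By likeness over the 8 arrays, measured as the root mean square distance between log2 signals centred on their means, Cnn3 and Ptp4a1 were nearest to Kynu. Their distances were 0.141 and 0.154, where the median over all genes was 0.705. These genes were taken as those with the smallest distances, so both lie below the median by construction. The distance includes the difference between the groups, so a fall like that of Kynu follows from the choice and is no separate result. Ptp4a1, a tyrosine phosphatase, went from 1680 ± 394.1 (SD, n = 4) to 900.1 ± 189.0 (log2 fold change -0.89 ± 0.20, adjusted p = 0.0195) and passed in 14 of 21 alternative fits (adjusted p up to 0.312). Cnn3, an actin-binding calponin, missed the threshold at -0.78 ± 0.24 (adjusted p = 0.0618) and passed in 3 of 21 alternative fits.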

How the data were processed

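The authors deposited signal intensities on a linear scale for each probe set of each array, made with MAS5 per the submitters' processing notes. The MAS5 version, scaling target, detection calls and filters: not given in the sources used here. The arrays as deposited had 2% trimmed means between 500.8 and 501.02. They were brought to 500 exactly, signals under the 20th percentile (20.4) were set to that floor, and log2 was taken. Of 8740 probe sets, 5244 (the brightest 60% by mean over all arrays) were tested. D3T and vehicle were compared with limma 3.58.1 in R 4.3.3 (lmFit, then eBayes with the prior variance following mean signal). P-values were adjusted by Benjamini-Hochberg over all 5244 with a threshold of 0.05. Intervals are 95%, and fold changes are ratios of geometric means. The brightest probe set stood for a gene; 7006 probe sets had 1 gene symbol, 308 several and 1426 none. Named genes were the pathway's, up to 3 passing genes with the largest change (otherwise the brightest) of each list, and the 2 genes nearest to a passing pathway gene. The genes, lists and tests were chosen with earlier results of these data known. The fit was tested on simulated data. Promoter sequences are RefSeq's. No array repeated another. The alternatives varied the scaling (none, quantile, median), the floor or pseudocount (16), the filter, the variance model, the weights and the covariates, left out single arrays or shared-sequence probe sets, averaged probe sets by gene, and used a replicate block. The GAPDH covariate was added after seeing the data.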

Additional observations from a re-analysis of the deposited data

How the results depend on the processing

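The count of passing probe sets, 560 as reported, was 309 with no filter, 333 with no intensity trend, 290 with the replicate number as a block, 35 with the actin covariate and 177 with the GAPDH covariate, and ran from 240 to 695 when 1 array was left out. The count of passing pathway genes, 1 as reported, was 0 with each of those 5 settings and ran from 0 to 1 when 1 array was left out. Kynu had a log2 fold change of -0.99 with no filter, with no intensity trend and with the replicate block, -0.65 with the actin covariate and -0.88 with the GAPDH covariate, none past the threshold, and -1.20 to -0.85 when 1 array was left out. The labels give replicate numbers but do not say whether these pair the rats. Same-numbered deviations correlated at -0.20 to 0.063, and 1 of 4 vehicle arrays correlated best with its own number. So few correlations cannot decide whether the arrays were paired. With the block Kynu had a limma adjusted p of 0.0607.

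No other gene of the pathway passed in any alternative (0 of 190 values). Its small changes turned sign as follows. For Hpd the brightest probe set gave -0.056 with quantile normalization and -0.046 with the GAPDH covariate, the dim one -0.016 with array weights and -0.063 to 0.46 without 1 array, and the other 0.11 with the actin covariate and -0.13 to 0.025 without 1 array. Fah gave 0.15 with the actin and 0.0039 with the GAPDH covariate, and -0.073 to 0.027 without 1 array. Tdo2 gave -0.0014 to 0.25 without 1 array. Kmo gave -0.0055 with the actin covariate, and the brighter Haao probe set -0.0089 with the actin and -0.012 with the GAPDH covariate. Outside the pathway, the endothelial marker Kdr and the cholangiocyte marker Epcam also turned sign. Kdr was 0.50 with the actin covariate, and Epcam -0.21 with the actin and -0.075 with the GAPDH covariate and -0.0014 to 0.29 without 1 array. The cause of these changes was not tested. At 4 arrays a group the interval of Tat still held a ratio of 0.588.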

Other observations

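Kynu and Tat both need pyridoxal phosphate, the active form of vitamin B6, as do many aminotransferases and decarboxylases in the lists above. Of 14 tested genes of such enzymes, a grouping made after the values were seen, 2 were lower (Kynu and Oat) and none higher, where 5.84% of all genes were lower and 3.71% higher; 9 had negative and 5 positive log2 fold changes, and the median was -0.065. The genes named next were chosen after their values were seen. Agxt, the peroxisomal glyoxylate aminotransferase, went from 4115 ± 206.4 (SD, n = 4) to 3056 ± 559.9 with all 4 D3T arrays below the vehicle arrays, and did not pass (log2 fold change -0.45 ± 0.14, limma adjusted p = 0.0607). Aadat, an aminotransferase that turns kynurenine into kynurenic acid, had a log2 fold change of -0.32 ± 0.13 (adjusted p = 0.147). Ddc, the aromatic amino acid decarboxylase, had one of 0.48 ± 0.16 (adjusted p = 0.0763), the opposite sign, and neither passed. From the same list as Agxt, Gpt and Sds were also positive and did not pass. Gpt had a log2 fold change of 0.37 ± 0.14 (limma adjusted p = 0.107), with all 4 D3T arrays above the vehicle arrays. Sds had one of 0.81 ± 0.37 (adjusted p = 0.171). Over all genes, 19.3% had groups that did not overlap.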
